A study of Rattus norvegicus with 18 samples.

Results

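Gene expression in the lungs of MWCNT-treated rats was compared between Year 2 and Year 0.5. The comparison used 6 of the 18 rats sequenced, 3 MWCNT-treated rats of Year 2 and 3 of Year 0.5, chosen by their treatment and time labels and by no measured value. All were male F344 rats that had received 0.5 mg/kg of MWNT-7, a preparation of multi-walled carbon nanotubes, into the trachea every 4 weeks from 9 weeks of age. The rats were killed at the times that the labels call Year 0.5 (week 26) and Year 2, so that time of exposure, number of instillations, and age rose together and cannot be told apart in these 6 rats. Control rats, which received the vehicle on the same schedule (dose 0 mg/kg), served to show the change over the same time without MWCNT, with 3 rats at each of these times. The 3 MWCNT-treated rats of Year 1 (week 52) entered no test of this comparison and are given as levels. The RNA came from portions of the accessory lobe without gross tumor nodules, so it is RNA of a mixture of lung cells. The surfactant gene *Sftpc*, which marks alveolar type 2 cells, stood at 32139 to 35960 TPM (a transcript level scaled for gene length and library) in the 6 lungs.

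Carbon nanotubes that reach the alveoli are taken up by macrophages and are cleared slowly. Persistent fibers keep macrophages, granulocytes, and lymphocytes in the tissue, and the gas exchange surface, a thin sheet of alveolar type 1 cells laid against capillary endothelium, can be lost or remodelled around them. Mast cells are tissue immune cells that store histamine and proteases (tryptase, chymase, and carboxypeptidase A3) in granules and carry the high affinity receptor for IgE. In the rat lung they lie mainly around airways, vessels, and the pleura.

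Counts of reads per gene were available for 22081 genes, with total counts from 14661589 to 21130757 in the 6 rats. After the filter on low counts, 14312 genes were tested by the edgeR quasi-likelihood test, and a gene was a DEG when its FDR (Benjamini-Hochberg) was under 0.05 and its level more than doubled or fell by more than 1 on the log2 scale. There were 316 DEGs (2.21% of the genes tested), of which 200 were upregulated (1.40%) and 116 downregulated (0.811%) at Year 2. Without the limit on the fold change, 2141 genes (15.0%) had an FDR below 0.05, 1095 higher (7.65%) and 1046 lower (7.31%). The median log2 fold change of all genes tested was 0.0025. Of the DEGs, 198 upregulated and 115 downregulated genes had no overlap between the 3 rats of Year 2 and the 3 of Year 0.5, against 35.4% of all genes tested. The DEGs were called from the same 6 rats, so their lack of overlap follows largely from the call and is no further support. The number of DEGs depended on single rats. It was 199 without Year 0.5 rat 3, and the downregulated DEGs numbered 63 without that rat and 65 without Year 0.5 rat 1.

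Genes of mast cells were prominent among the largest rises. Transcripts of both tryptases, of chymase, of carboxypeptidase A3, and of the IgE receptor were scarce at Year 0.5 and abundant in every Year 2 rat, and the log2 fold changes lay between 3.69 and 4.53. *Tpsb2*, encoding tryptase beta 2 (chromosome 10, 14722756 to 14724600, Rnor_6.0), was at 2.21, 7.28, and 1.18 TPM in the 3 rats of Year 0.5 and at 82.6, 79, and 91.3 TPM in those of Year 2. All Year 2 rats lay far above the highest rat of Year 0.5, and the log2 fold change was 4.53 (SE 0.40, FDR 0.000869). *Tpsab1*, the neighbouring tryptase gene (chromosome 10, 14701253 to 14703668), was at 2.15, 9.44, and 0.805 TPM and then at 92.8, 77.7, and 108 TPM, a log2 fold change of 4.43 (SE 0.50). *Mcpt1l1*, a gene of the mast cell protease 1 family, was at 4.49, 17.8, and 1.55 TPM and then at 194, 177, and 174 TPM, a log2 fold change of 4.47 (SE 0.49). *Cma1*, the chymase gene, was at 1.53, 4.82, and 0.377 TPM and then at 34.3, 30.3, and 32.4 TPM (log2 fold change 3.81, SE 0.51).

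In each of these genes rat 2 had the highest level at Year 0.5, and the groups did not overlap. The tryptase genes and the mast cell protease genes are close copies of each other, and how reads that map to several copies were counted is not stated, so the division of reads between copies is uncertain. *Cpa3*, the carboxypeptidase gene, was at 2.89, 8.58, and 1.46 TPM at Year 0.5 and at 58.3, 46.1, and 63.7 TPM at Year 2 (log2 fold change 3.69, SE 0.44). *Ms4a2*, encoding the beta chain of the IgE receptor, rose from 0.889, 1.77, and 0.322 TPM to 13.7, 11.5, and 13.4 TPM (3.69, SE 0.39). *Fcer1a*, encoding its alpha chain, rose from 0.641, 0.931, and 1.01 TPM to 13.3, 8.97, and 13.5 TPM (3.84, SE 0.30). Receptor and granule genes thus rose together in each of the 3 Year 2 rats.

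**Figure D1:**
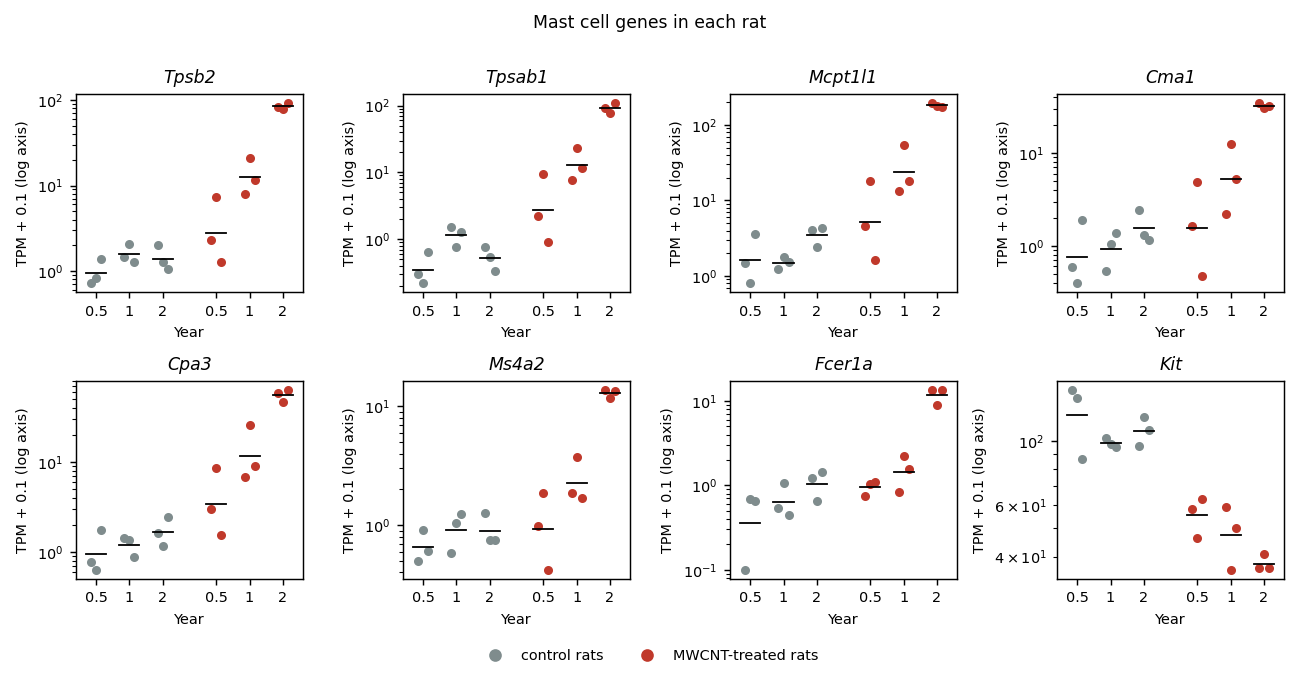
Levels of 8 genes of the mast cell list or family in each of the 18 rats, as TPM + 0.1 on a log axis against year, with control rats in grey and MWCNT-treated rats in red; each point is 1 rat and the bar is the geometric mean of 3 rats. The Year 2 MWCNT-treated rats lie above all other rats in the 7 granule and receptor genes, *Tpsb2* at 79 to 91.3 TPM, whereas *Kit*, at 36.4 to 40.6 TPM, lies there below all rats of Year 0.5.

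Enzymes that make or store mast cell amines rose less. *Hdc*, encoding histidine decarboxylase, which makes histamine, was at 5.24, 5.27, and 5.62 TPM and then at 12.7, 15, and 16 TPM (log2 fold change 1.52, SE 0.12, FDR 0.000575). *Hdc* also rose in control rats, by 0.70, and the difference between the changes in the treatments was 0.83 (FDR 0.0477). That difference passed in 1 of the 12 fits that left out a rat. Other genes of this cell type, chosen after their values were seen, followed. *Tph1*, encoding an enzyme of serotonin synthesis, was at 0.482, 1.98, and 0.0316 TPM and then at 5.81, 5.95, and 6.8 TPM (FDR 0.0263), and kept its call in 2 of the 6 fits that left out a rat. *Slc18a2*, encoding a transporter that loads amines into vesicles, had a log2 fold change of 1.05, and the solute carrier *Slc45a3* one of 1.75. *Mrgprb3* and *Mrgprx2*, receptors of the Mas-related family, rose by 4.42 and 1.74 on the log2 scale. *Mcpt8l2* and *Mcpt8l3*, of the mast cell protease 8 family, whose mouse counterpart marks basophils, rose by 2.77 and 3.23.

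Of the mast cell and eosinophil list of 23 genes, 18 were found in the tables and 13 were tested. Of these, 10 were upregulated DEGs (all genes tested, 1.40%) and 1 was a downregulated DEG, and the median log2 fold change was 2.12, against 0.59 for the 10 members tested in control rats and 0.0025 over all genes. Some of these members passed the filter on low counts only through Year 2, where they were high, so the counts and the median describe the members that passed and are no support for a rise of the list. With at least 10 counts required in every rat, 9 members were tested, 6 were upregulated DEGs, and the median was 1.13. The 10 include *Mcpt1* (2.12), *Il1rl1*, the receptor of interleukin 33 (1.13), and *Hpgds*, a prostaglandin D synthase (1.04), besides those given above. Leaving out any one rat gave 8 or 9 upregulated DEGs in the list, and *Hpgds* was not called in any of these fits. The downregulated member was *Ccr3*, the receptor of eotaxins on eosinophils, at 2.27, 2.21, and 2.34 TPM and then at 0.971, 0.613, and 0.663 TPM (log2 fold change -1.52, SE 0.25). The eosinophil granule genes *Prg2* and *Epx* did not exceed 0.376 TPM in any of the 6 rats and were not tested. *Kit*, the receptor of stem cell factor on mast cells, which capillary endothelium of the lung also expresses, was lower at Year 2, at 58.3, 46.4, and 63.1 TPM and then at 36.4, 40.6, and 36.5 TPM (log2 fold change -0.48, FDR 0.017), and *Gata2* had a log2 fold change of -0.59 (FDR 0.0416). In such bulk samples, fewer or more cells of a type and less or more RNA per cell cannot be told apart.

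At Year 1 the levels lay between those of the other times in most of these genes. *Tpsb2* was at 7.92, 21.1, and 11.3 TPM, all above the rats of Year 0.5. *Cpa3* was at 6.74, 26, and 8.97 TPM, with the lowest rat below the highest of Year 0.5. *Fcer1a* was at 0.745, 2.14, and 1.48 TPM, a range that overlapped Year 0.5. In the 9 control rats, *Tpsb2* lay between 0.618 and 1.97 TPM and *Cpa3* between 0.54 and 2.38 TPM. The control log2 fold changes were 0.63 (*Tpsb2*), 0.78 (*Cpa3*), 0.91 (*Mcpt1l1*), and 0.56 (*Ms4a2*), and none passed the test. *Mcpt1* rose in control rats by 1.81 (FDR 0.217), nearly as much as in MWCNT-treated rats, and the difference between the treatments was 0.33 (FDR 0.913). The control values of *Il1rl1* and *Hpgds* were -0.08 and -0.75. The test of the difference between the treatments gave 3.93 for *Tpsb2* (FDR 0.0726), 3.16 for *Ms4a2* (FDR 0.0501), and 2.94 for *Cpa3* (FDR 0.154). It did not pass either for *Mcpt1l1* (3.6, FDR 0.157), *Tpsab1* (3.83, FDR 0.418), *Cma1* (2.98, FDR 0.212), or *Fcer1a* (2.43, FDR 0.236). A change particular to MWCNT-treated rats was therefore not established by that test for any of these 7 granule and receptor genes. It passed for *Mcpt8l3* (2.91, FDR 0.0163), *Slc18a2* (1.31, FDR 0.02), *Slc45a3* (1.72, FDR 0.0477), and *Ccr3* (-2.32, FDR 0.0132). *Mcpt8l3*, *Slc18a2*, and *Slc45a3* had been chosen after their values were seen. Of the 12 fits that left out a rat, the difference passed in 11, 9, and 1 for these genes and in 12 for *Ccr3*.

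Promoters of the mast cell genes were read from RefSeq (GRCr8, 250 bases before to 50 after the start). Of the 10 upregulated members of the list, 8 had an entry. The letters AGATAA, a form of the sequence bound by GATA factors, which are known regulators of mast cell genes, were searched on both strands (TTATCT on the other). They occurred in 3 of these 8 promoters, those of *Cma1*, *Cpa3*, and *Fcer1a*, and in 11.6% of the 33469 promoters of the same length. The promoter of *Ccr3*, the downregulated member, also held them, which made 4 of the 11 tested members with an entry, and those of *Tpsb2* and *Tpsab1* did not. Over the 146 upregulated DEGs with an entry the share was 4.79%. The 3 promoters of upregulated members are shown because they hold the match, each in the direction of transcription, with the match in capitals.
Cma1 promoter, chr15:33390084-33390383, strand -: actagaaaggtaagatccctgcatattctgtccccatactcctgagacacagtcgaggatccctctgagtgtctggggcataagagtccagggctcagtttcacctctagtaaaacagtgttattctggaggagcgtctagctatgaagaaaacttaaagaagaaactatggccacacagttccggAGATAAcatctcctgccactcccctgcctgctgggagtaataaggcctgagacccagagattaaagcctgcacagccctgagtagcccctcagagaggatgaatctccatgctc
Cpa3 promoter, chr2:104673188-104673487, strand -: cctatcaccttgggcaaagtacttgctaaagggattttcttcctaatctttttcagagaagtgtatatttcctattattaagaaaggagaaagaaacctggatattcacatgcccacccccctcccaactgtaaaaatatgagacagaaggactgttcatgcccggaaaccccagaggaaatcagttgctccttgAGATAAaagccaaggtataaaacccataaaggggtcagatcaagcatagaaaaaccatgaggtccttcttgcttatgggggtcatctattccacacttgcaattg
Fcer1a promoter, chr13:88224630-88224929, strand -: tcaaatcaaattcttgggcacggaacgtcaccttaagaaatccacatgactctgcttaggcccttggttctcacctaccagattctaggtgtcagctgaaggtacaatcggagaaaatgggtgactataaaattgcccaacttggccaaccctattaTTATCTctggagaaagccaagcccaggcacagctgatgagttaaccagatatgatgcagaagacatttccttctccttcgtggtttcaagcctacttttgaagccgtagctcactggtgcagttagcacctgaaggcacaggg
A match is a description of the letters only, and the binding of a factor was not measured.

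Outside the mast cell genes, the gene with the smallest FDR was *Lpo*, encoding lactoperoxidase, an antimicrobial enzyme of airway secretions. It was at 9.79, 12.9, and 12.2 TPM at Year 0.5, at 107, 64, and 83.1 TPM at Year 1, and at 213, 212, and 181 TPM at Year 2 (log2 fold change 4.19, SE 0.12, FDR 3.71e-06). The 3 times did not overlap, and no control rat exceeded 1.85 TPM. *Muc20*, a membrane mucin, was at 3.03, 2.72, and 3.21 TPM and then at 14.7, 11.7, and 12.3 TPM (2.19, SE 0.17), and its Year 1 levels, 8.72 to 12.9 TPM, overlapped those of Year 2. *Muc5b*, a secreted mucin, rose by 2.05 (FDR 0.0347) with 1 high rat, at 4.91, 13.9, and 3.26 TPM at Year 2, and was not called without that rat or without any one of the Year 0.5 rats. These were the 3 upregulated DEGs among 26 tested genes of the airway secretory and mucous list (all genes tested, 1.40%). The list as a whole did not rise, with a median log2 fold change of -0.16. Its downregulated member was *Fmo2*, a flavin monooxygenase (downregulated DEGs over all genes tested, 0.811%). No member of the motile cilium list (31 tested) was a DEG, against 2.21% of all genes tested, and its median was -0.31.

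Among the other large rises, *Orm1*, encoding the acute phase protein orosomucoid, had 5, 1, and 1 counts at Year 0.5 and 47, 96, and 100 counts at Year 2 (5.19, SE 0.55). *Ocm2*, encoding an oncomodulin, was at 1.05 to 1.58 TPM and then at 40.1, 30.3, and 23.4 TPM (4.72, SE 0.30). One control rat of Year 2 also had 22.3 TPM, while the other 2 had 0.171 and 0.188 TPM. *Vat1l* (4.57), *Tmprss6*, a membrane protease (4.01), and *Mettl11b*, a methyltransferase (4.00), rose from levels below 0.21 TPM and stood at 1.22 to 4.68 TPM at Year 2. These 3 genes rested on 1 to 6 counts in each Year 0.5 rat. The largest fold of any gene, 7.36 (SE 0.53), was of LOC103690016, a provisional locus named here after its values were seen, with 0, 0, and 3 counts at Year 0.5 and 147, 212, and 138 at Year 2. Its fold depends on the near absence of counts at Year 0.5, and other groups were erratic, with 5, 140, and 0 counts at Year 1. *Mt3*, a metallothionein, was at 37, 48.3, and 17 TPM and then at 139.6, 183, and 85.4 TPM (2.05, SE 0.37), and no control rat exceeded 0.709 TPM. *Mt3* was the 1 upregulated DEG among 14 tested genes of the metallothionein and zinc transport list (all genes tested, 1.40%).

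Macrophage genes rose broadly and by smaller factors. Of 36 tested genes of the macrophage and lipid-associated macrophage list, 4 were upregulated DEGs (all genes tested, 1.40%). At an FDR below 0.05, 24 were higher at Year 2 (all genes tested, 7.65%) and none was lower. The median log2 fold change was 0.55 against 0.00 in control rats. With at least 10 counts required in every rat, 35 members were tested, 3 were upregulated DEGs, and 23 were higher at that FDR. *Apoe*, the apolipoprotein through which macrophages export cholesterol, was at 2306, 2463, and 1669 TPM and then at 5801, 5626, and 4676 TPM (1.40, SE 0.16). *Fabp4*, a fatty acid binding protein, was at 279.5, 315, and 239 TPM and then at 697, 698, and 639 TPM (1.36, SE 0.11), whereas in control rats it was at 30.5 to 42.4 TPM and then at 16.9 to 29 TPM. The change of *Fabp4* differed between the treatments by 2.11 (FDR 0.00194). *C1qa*, a chain of the complement component C1q, was at 262, 311, and 225 TPM and then at 566, 549.5, and 507 TPM (1.10, SE 0.12), and *Cd5l*, a secreted protein of tissue macrophages, rose by 2.71 (SE 0.49).

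Genes of the response to lipid and debris followed in the same direction below the limit on the fold change. *Trem2*, a lipid-sensing receptor, had a log2 fold change of 0.85 (FDR 0.000869), *Gpnmb*, a glycoprotein of loaded macrophages, 0.82 (FDR 0.00512), *Lgals3*, galectin 3, 0.90 (FDR 0.00327), and *Cd68*, 0.59 (FDR 0.00455). The difference from control rats passed the test for *Trem2* (0.99), *Gpnmb* (1.08), and *Lgals3* (0.83). Of the 12 fits that left out a rat, this difference passed in 12 for *Trem2*, 3 for *Gpnmb*, and 4 for *Lgals3*. *Spp1*, encoding osteopontin, did not move with them. It was at 1386, 1708, and 1157 TPM at Year 0.5 and at 1724, 1229, and 1169 TPM at Year 2 (0.04, SE 0.19), far above the control levels of 0.612 to 6.46 TPM at both times. *Mrc1*, the mannose receptor, likewise had a log2 fold change of 0.11 (SE 0.08). Without Year 0.5 rat 1, the number of list members higher at an FDR below 0.05 fell from 24 to 16.

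Lysosomal enzymes and antigen presentation also showed small rises. For the lists that follow, 1.40% of all genes tested were upregulated DEGs, and 7.65% were higher and 7.31% lower at an FDR below 0.05. In the lysosome list 12 of 27 tested genes were higher at an FDR below 0.05 and none was lower, with no DEG. *Ctsb*, cathepsin B, was at 2021, 2217, and 1862 TPM and then at 2996, 2793, and 2684 TPM (0.55), and *Lipa*, lysosomal acid lipase, rose by 0.72. In the MHC class II list 10 of 15 tested genes were higher and none was lower, among them *RT1-Da* (0.41) and the invariant chain *Cd74* (0.43), and without Year 0.5 rat 1 the number past the FDR was 3. Complement and acute phase genes gave 6 upregulated DEGs among 32 tested, with 15 higher and 1 lower at an FDR below 0.05. *Orm1*, among the 6, passed the filter on low counts only through Year 2. With at least 10 counts required in every rat, 31 members were tested and 5 were upregulated DEGs. *Cfd*, complement factor D, was at 45.5, 50.2, and 42.1 TPM and then at 99.9, 102, and 93.9 TPM (1.18, SE 0.09). *C4b* (1.21), *Serping1*, the C1 inhibitor (1.12), and the heme scavenger *Hpx* (1.34) rose as well. Among neutrophil genes, 3 of 15 tested were upregulated DEGs. *S100a8*, a calcium binding protein of neutrophils and monocytes, was at 102, 110.1, and 109 TPM and then at 306, 207, and 401 TPM (1.59, SE 0.21), a range that Year 1 had already reached (246 to 297 TPM). *S100a9* rose by 1.30, and *Mmp9*, gelatinase B, from 5.49, 5.95, and 3.28 TPM to 18.1, 25.7, and 13.8 TPM (2.04, SE 0.27). *Tf*, encoding the iron carrier transferrin, was at 127, 128, and 109 TPM and then at 312, 284, and 332 TPM (1.43, SE 0.09), and its change differed from that of control rats by 1.32 (FDR 0.00394).

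**Figure D2:**
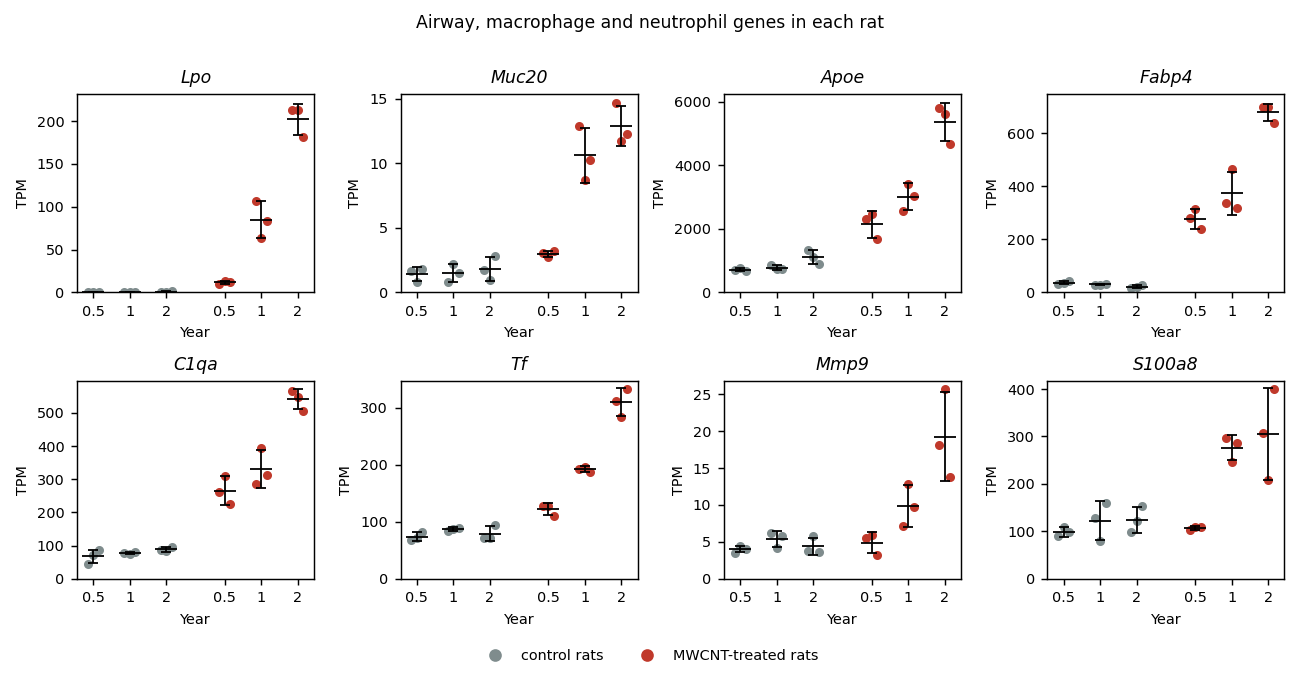
Levels of 8 genes that rose, in TPM on a linear axis starting at 0, in each of the 18 rats against year; points are single rats, control in grey and MWCNT-treated in red, and bars are the mean and SD of 3 rats. *Lpo* climbs from 9.79 to 12.9 TPM at Year 0.5 to 181 to 213 TPM at Year 2, and *S100a8* reaches its Year 2 range by Year 1.

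Endothelial genes fell as a group. Of 45 tested genes of the lung endothelium list, 5 were downregulated DEGs (all genes tested, 0.811%) and 29 were lower at an FDR below 0.05 (all genes tested, 7.31%), none was higher, and the median log2 fold change was -0.68, against -0.13 in control rats. *Lyve1*, a hyaluronan receptor of lymphatic and some lung capillary endothelium, was at 109.9, 91.9, and 172 TPM and then at 39.7, 46.9, and 46.7 TPM (-1.40, SE 0.20), and its change differed from control rats by -1.20 (FDR 0.0368). That difference passed in 3 of the 12 fits that left out a rat. *Kdr*, encoding the main receptor of vascular endothelial growth factor, was at 131, 90.1, and 112 TPM and then at 41.4, 51.5, and 64.5 TPM (-1.0, SE 0.16). *Ace*, angiotensin converting enzyme of lung capillaries, was at 434, 341, and 482 TPM and then at 166, 185, and 229.9 TPM (-1.03, SE 0.14). *Ptprb*, the endothelial phosphatase, and *Plvap*, the protein of fenestral diaphragms, fell by 1.05 and 1.02 on the log2 scale. *Cdh5*, VE-cadherin, was lower by less (-0.62, FDR 0.019). The summed level of the list was 5718 to 8102 TPM at Year 0.5 and 3462 to 4857 TPM at Year 2, with no overlap. In the control rats it was 13639 to 15786 TPM and then 12028 to 15307 TPM, so that the MWCNT-treated lungs lay below the controls at both times.

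Only *Lyve1* of the 5 kept its call when each rat was left out in turn. The number of endothelial DEGs was 1 without Year 2 rat 1, 2 without Year 0.5 rat 1 or rat 3, 3 without Year 2 rat 2, 8 without Year 2 rat 3, and 11 without Year 0.5 rat 2. The number past the FDR alone was 15 to 32, and the median stayed between -0.78 and -0.59.

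Alveolar type 1 genes fell beside them. Of 21 tested, 2 were downregulated DEGs (all genes tested, 0.811%) and 16 were lower at an FDR below 0.05 (all genes tested, 7.31%), with a median of -0.59 (control rats, -0.20). *Spock2*, a proteoglycan gene of type 1 cells, was at 110.4, 80.3, and 109.8 TPM and then at 30.6, 40.5, and 55.7 TPM (-1.16, SE 0.19). *Rtkn2*, a rhotekin, was at 53.6, 40.6, and 61.8 TPM and then at 20.1, 23.3, and 28.1 TPM (-1.04, SE 0.15). *Cav1*, caveolin 1, which both type 1 cells and endothelium express and which stands on both lists, was lower by 0.95 (FDR 0.0065). *Ager*, the most used marker of type 1 cells, was at 1506, 1271, and 1553 TPM and then at 1172, 1095, and 1255 TPM, which did not pass the test (-0.22, FDR 0.126). Without Year 2 rat 1 neither *Spock2* nor *Rtkn2* was called, and the number lower at an FDR below 0.05 was 15. Of 20 tested alveolar type 2 genes 1 was a DEG (downregulated DEGs over all genes tested, 0.811%), the desaturase *Scd* (-1.09). The median of the list was -0.09.

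Some single genes fell by larger factors, from lower levels. *Ccl11*, encoding eotaxin, the chemokine bound by *Ccr3*, was at 8.05, 6.93, and 5.85 TPM and then at 0.625, 0.659, and 0.474 TPM (-3.45, SE 0.31). At Year 1 it was at 2.76, 4.03, and 3.11 TPM, and the 3 times did not overlap. In control rats it was at 11.1, 6.84, and 8.02 TPM and then at 4.3, 4.47, and 3.04 TPM, and the difference between the changes was -2.33 (FDR 0.0295). That difference passed in 4 of the 12 fits that left out a rat. *Slc7a10*, an amino acid transporter, was at 21.4, 15.8, and 25.3 TPM and then at 3.17, 3.01, and 5.88 TPM (-2.29, SE 0.27), while control rats stayed at 48.1 to 72.6 TPM (difference -2.07, FDR 0.0114). *Ackr4*, a scavenger receptor of chemokines, fell by 1.96 (SE 0.26), and its change differed from that in control rats by -1.52 (FDR 0.0368). That difference passed in 2 of the 12 fits that left out a rat.

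*Unc5d*, a netrin receptor, fell by 3.16 on the log2 scale (SE 0.52) from 0.498, 0.694, and 0.775 TPM, with at most 0.11 TPM at Year 2. *Acoxl* (-2.16), the collagen gene *Col6a4* (-2.12), the potassium channel partner *Dpp6* (-2.07), and *Csrnp3* (-2.0) were also among the largest falls. *Acoxl* and *Csrnp3* lost their call without some of the rats. Of 27 tested alveolar fibroblast genes, 2 were downregulated DEGs (*Slc7a10* and *Mfap4*) and 1 was upregulated (all genes tested, 0.811% and 1.40%). At an FDR below 0.05, 6 were higher and 9 lower, and the median was -0.21, against -0.42 in control rats. *Mfap4*, a microfibril protein, was at 1511, 1663, and 1761 TPM and then at 839.9, 682, and 486 TPM (-1.21, SE 0.18), but the control rats of Year 2 stood apart from each other, at 279.6, 293, and 2590 TPM. *Dlk1* rose by 2.54 with overlapping groups (1.01, 1.08, and 2.6 TPM, then 2.2, 13, and 10.5 TPM), and kept its call in 2 of the 6 fits that left out a rat. *Actg1* had the largest fall (-3.99), from 39.6, 59.5, and 14.4 TPM to 2.24, 4.13, and 0.319 TPM. Its levels varied severalfold within the Year 0.5 and the Year 2 MWCNT group and were 0 in all control rats of Year 2, which is low for a cytoplasmic actin, a gene with near-identical copies, so that this fall is uncertain.

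**Figure D3:**
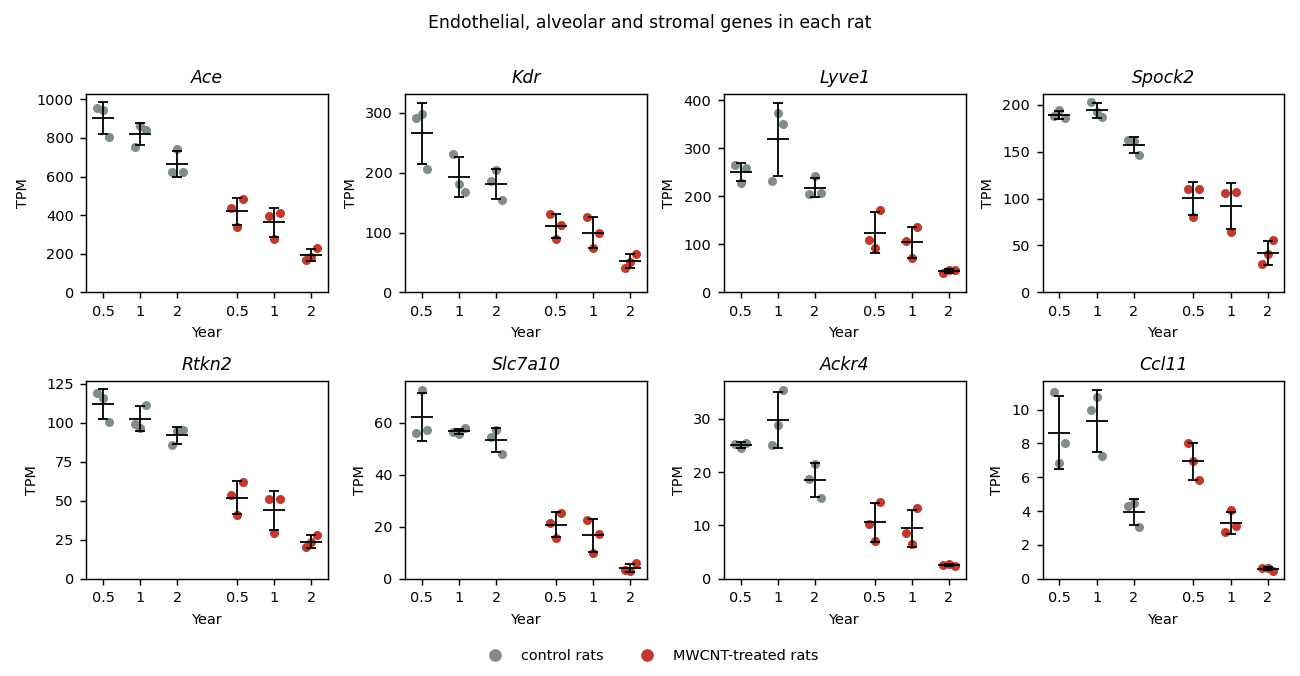
Levels of 8 genes that fell, in TPM on a linear axis starting at 0, in each of the 18 rats against year; points are single rats, control in grey and MWCNT-treated in red, and bars are the mean and SD of 3 rats. *Ace* and *Kdr* are lower in the MWCNT-treated rats than in the control rats at Year 0.5 and fall further by Year 2, and *Ccl11* falls in both treatments.

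The DEGs of the lymphoid lists were all lower at Year 2, and the share of downregulated DEGs over all genes tested was 0.811%. Outside these lists *Cd72*, a receptor of B cells and macrophages, was upregulated (1.72, FDR 0.000553). Of 24 tested B cell and plasma cell genes, 2 were downregulated DEGs, among them the complement receptor *Cr2* (-2.05, SE 0.46), and both lost the call when single rats were left out. The list as a whole did not fall, with a median of -0.06 (control rats, -0.20). Its summed level was 1329, 1456, and 1042 TPM at Year 0.5 and 2467, 1154, and 1187 TPM at Year 2. *Glycam1*, an adhesion ligand of high endothelial venules (-2.91), and *Ccr7*, the homing receptor (-1.01), were the downregulated DEGs of 14 tested follicle and homing genes. *Glycam1* kept its call in 2 and *Ccr7* in 4 of the 6 fits that left out a rat, and the list had no DEG without Year 2 rat 2. With at least 10 counts required in every rat, 13 members were tested and 1 was a downregulated DEG. The median of the list was -0.07, against -0.15 in control rats. Among chemokines, *Cxcl14* (-1.35) and *Ccl22* (-1.05) were DEGs besides *Ccl11* (27 tested). With at least 10 counts required in every rat, 25 were tested and 2 were downregulated DEGs. *Cxcl14* fell by 1.13 in control rats too, and *Ccl22* kept its call in 3 of the 6 fits. No gene of the T and NK cell list (33 tested, median -0.09) was a DEG, with *Cd3d* at 7.99 to 8.88 TPM and then 4.82 to 8.24 TPM, and *Gzmb*, granzyme B, at 1.58 (SE 0.49, FDR 0.0644). In control rats the median of this list was 0.65, and *Gzmb* had a log2 fold change of 1.75 (FDR 0.26). None of 32 interferon-stimulated genes and none of 48 mitosis and DNA replication genes was a DEG. *Mki67*, the proliferation marker, was at 8.39, 10.3, and 8.39 TPM and then at 7.01, 7.74, and 9.54 TPM. *Cdkn2a*, the senescence marker, was at 2.19, 1.39, and 2.15 TPM and then at 2.63, 4.12, and 10.6 TPM (1.68, FDR 0.0633), with a control change of 1.94.

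Matrix genes moved in both directions. For all lists of this paragraph, 1.40% of all genes tested were upregulated and 0.811% downregulated DEGs. Of 42 tested collagen and fibrosis genes, 1 was a DEG, *Col11a1* (1.78, below 0.4 TPM in every rat), which kept its call in 1 of the 6 fits that left out a rat. At an FDR below 0.05, 5 members were higher and 13 lower (all genes tested, 7.65% and 7.31%). The median of the list was -0.15, against -0.27 in control rats. There 8 members were lower at that FDR, which 1.92% of all genes passed in either direction. With at least 10 counts required in every MWCNT-treated rat, 41 members of the list were tested and none was a DEG. *Thbs2*, thrombospondin 2, rose by 0.94 (FDR 0.00386) and *Col3a1* was lower (-0.49, FDR 0.02), whereas *Col1a1* had a log2 fold change of -0.07. In control rats the log2 fold changes were -0.49 for *Thbs2*, -0.76 for *Col3a1* (FDR 0.0586), and -0.80 for *Col1a1* (FDR 0.0463). *Mmp7*, matrilysin, was at 5.86, 6.3, and 5.65 TPM and then at 17.2, 14.9, and 12.4 TPM (1.40, SE 0.18), and no control rat exceeded 0.13 TPM. Of 56 tested genes of Wnt, Notch, and BMP signalling, 3 were upregulated DEGs, each a secreted antagonist. These were *Sfrp1* (1.15), *Frzb* (1.17), and *Grem1* (1.34), and *Grem1* was below the threshold in many of the alternatives. In the same list 6 genes were higher and 13 lower at an FDR below 0.05 (all genes tested, 7.65% and 7.31%). Its median was -0.28, against -0.20 in control rats. Single downregulated DEGs were found among 38 tested growth factor ligands and receptors (*Fgf18*, -1.32), 24 smooth muscle and pericyte genes (*Aoc3*, an amine oxidase, -1.07), 23 NRF2 target and glutathione genes (*Gsta4*, a glutathione transferase, -1.01), and 50 axon guidance genes (*Unc5d*, given above). *Fgf18* and *Gsta4* each kept the call in 3 of the 6 fits that left out a rat. At an FDR below 0.05, 16 of the axon guidance and 9 of the smooth muscle and pericyte genes were lower (all genes tested, 7.31%). In these lists 2 and 1 genes were higher. The list medians were -0.29 and -0.24, against -0.13 and -0.26 in control rats. With at least 10 counts required in every MWCNT-treated rat, 47 axon guidance genes were tested and none was a DEG. *Mmp7* and *Mmp9* were the 2 DEGs of 17 metalloproteinases and inhibitors. *Sox9* (1.23) rose and *Cldn1* (-1.02) fell among 27 tested basal, keratin, and transitional epithelium genes, and *Cldn1* kept its call in 3 of the 6 fits.

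Lists with no DEG were the circadian clock (19 tested, *Clock* -0.37), immediate early response (27 tested, *Fos* -0.60, FDR 0.0741), cholesterol synthesis and efflux (25 tested, *Hmgcs1* -0.41), endoplasmic reticulum stress (24 tested, *Hspa5* -0.10), and p53 target and senescence (26 tested, *Cdkn1a* 0.27) lists. Some of them still held genes that were lower at an FDR below 0.05 (all genes tested, 7.31%), 9 in the cholesterol list (median -0.21) and 6 in the immediate early list (median -0.36), which in control rats had medians of -0.13 and -0.31. Markers of tissue next to the lung were read as well. For these lists and those with no DEG, the share of DEGs over all genes tested was 2.21%. No heart muscle gene of 16 tested was a DEG, and the summed level of that list was 143 to 203 TPM at Year 0.5 and 98.3 to 186 TPM at Year 2, with *Myl4* and *Myl7* overlapping. Red blood cell genes (9 tested, 0 DEGs) summed to 4420.0 to 11112 TPM and then 4922 to 10792 TPM, with *Hba-a1* at 0.13. Of 4 tested skeletal muscle genes 1 was a DEG, *Myh4* (1.59), which rose by 1.63 in control rats. Of 11 tested mesothelium genes 1 was a DEG, *Wt1* (1.55), *Msln* was higher by 0.48 (FDR 0.00218), and *Upk3b* was at -0.10. Among 8 tested adipocyte genes, *Fabp4* and *Cfd* were DEGs, while *Adipoq* (0.26) and *Plin4* (0.03) overlapped. The part of any of these cells in the results was not tested.

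**Figure D4:**
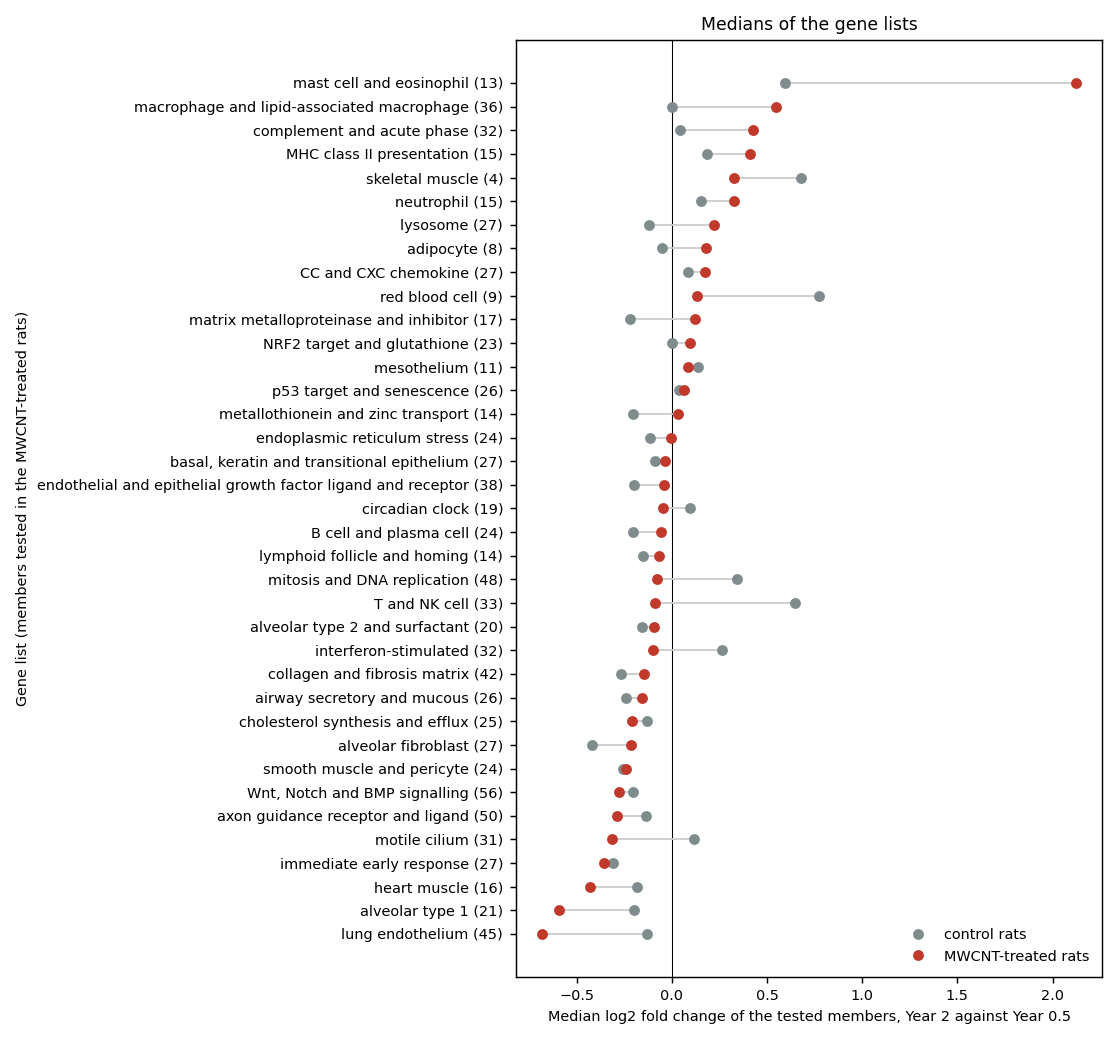
Median log2 fold change from Year 0.5 to Year 2 of the tested members of 37 gene lists (rows, with the number tested in MWCNT-treated rats in brackets), in MWCNT-treated rats (red) and in control rats (grey), joined by a line. As drawn, the mast cell and eosinophil list has the highest median in MWCNT-treated rats, 2.12, and the lung endothelium list the lowest, -0.68. Some mast cell and eosinophil members passed the filter only through Year 2, where they were high. With at least 10 counts in every rat, 9 members were tested and that median was 1.13. The control median of that list rests on 10 members.

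The same comparison in control rats gave 41 DEGs of 14245 genes tested (0.288%), 28 higher (0.197%) and 13 lower (0.0913%) at Year 2, and 274 genes (1.92%) passed the FDR alone. Of the 41, 9 were also DEGs in the MWCNT-treated rats, which is 22% of the control DEGs and 2.85% of the MWCNT DEGs, and none was in opposite directions. *Actg1*, *Phex*, *Cxcl14*, *Ly49s7*, *Klra5*, *Myh4*, and *Dlk1* were among the 9. Of the 200 upregulated DEGs, 137 were tested in control rats, where their median log2 fold change was 0.33 and 6 were higher at an FDR below 0.05. Of the 116 downregulated DEGs, 112 were tested there, with a median of -0.41 and 12 lower. The difference between the changes was tested for 14689 genes and passed an FDR of 0.05 for 139 (0.946%), 89 with the higher change in MWCNT-treated rats (0.606%) and 50 with the lower (0.340%). Among the DEGs it passed for 14 upregulated and 14 downregulated genes. A DEG in MWCNT-treated rats alone is thus not shown to differ from the change in control rats unless it is among those 28.

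**Figure D5:**
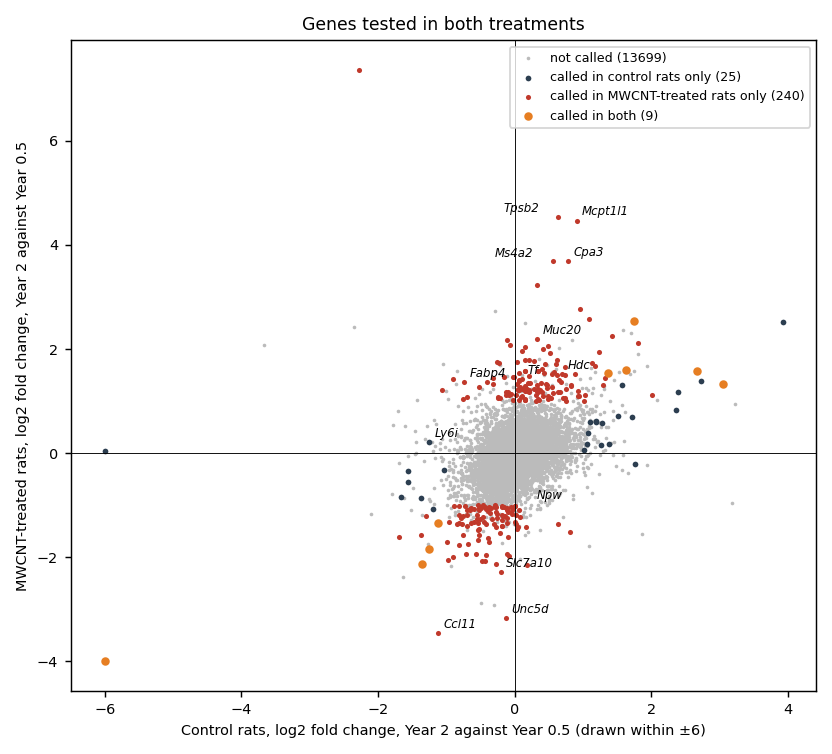
Log2 fold change from Year 0.5 to Year 2 in MWCNT-treated rats (vertical axis) against that in control rats (horizontal axis, drawn within ±6) for the 13973 genes tested in both; each point is a gene, red where it was called in the MWCNT-treated rats only, dark where in the control rats only, and orange where in both. The 240 red points outnumber the 25 dark and 9 orange ones. The calls come from a separate test in each treatment, so these counts do not test a difference between the treatments. DEGs that were not tested in control rats are not drawn.

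The 5 genes with the smallest FDR of this difference, under the limits set for named genes, were *Fabp4* and *Tf*, given above, and *Lhfpl2*, *Ly6i*, and *Npw*. *Npw*, encoding the neuropeptide W precursor, was at 89.3, 85.2, and 80.8 TPM and then at 39.2, 41.7, and 41 TPM, whereas control rats were at 77.7 to 87.6 TPM and then 93.1 to 102 TPM (difference -1.22, FDR 0.00194). *Lhfpl2*, a membrane protein, was at 17.7, 19.7, and 16.5 TPM and then at 29.1, 29, and 28.2 TPM, against 10.9 to 11 TPM and then 8.46 to 9.25 TPM in control rats (1.07). *Ly6i*, of the Ly6 family, was flat in the MWCNT-treated rats, at 1014 to 1153 TPM and then 990.0 to 1395 TPM, and fell in control rats from 329 to 357 TPM to 140.0 to 151 TPM (1.47).

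At Year 1 the mean level lay between the means of Year 0.5 and Year 2 for 288 of the 316 DEGs (91.1%), 178 of the upregulated and 110 of the downregulated ones, and for 50.1% of all genes tested. The interval between the means is wider in a DEG, so the 2 shares are not compared by a test.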

How the data were processed

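Lung RNA of 18 rats had been sequenced, 3 for each treatment and time point, with groups taken from the sample labels. The authors mapped the reads with CLC Genomics Workbench to a rat genome that the submitters' processing notes name as Rnor_6.0, and each deposited count is an unnormalized whole number of reads for 1 gene. TPM, scaled for gene length and library, was also deposited by the authors. Whether strand was used, and what was done with reads that map more than once, is not given in the sources used here. The authors' RPKM, CPM, and comparison columns were not used.

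Counts were joined by gene identifier and analysed in R 4.3.3 with edgeR 4.0.16, with filterByExpr (count at least 10, total at least 15), TMM factors, and the quasi-likelihood test on the 6 MWCNT-treated rats of Years 0.5 and 2. The 6 control rats were fitted in the same way, and the difference between the changes was tested in a model of the 12 rats. DEGs passed an FDR of 0.05 with a log2 change of over 1 in size, and the difference between the changes passed at an FDR of 0.05. The SE came from dividing each log2 change by the root of its F value. Total counts were 14661589 to 21130757 in the MWCNT-treated and 13297643 to 16596355 in the control rats. Rats of a group differed by more than sampling noise, and since every library came from another animal, equal replicate numbers pair nothing. The script was tested on simulated data.

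Named genes were the 12 largest rises and 12 largest falls among DEGs whose groups did not overlap, with a mean of at least 1 TPM in the higher group and no provisional symbol, up to 4 DEGs of each of 37 gene lists with the lowest FDR or its first 2 tested members where it had none, the first 2 tested markers of neighbouring tissues, and the 5 genes with the lowest FDR of the difference. The comparison, lists, and tests were chosen with earlier results of these data known, and further genes were named after their values were seen. Single results that the rule would name are not reported here. Alternatives were library size only, upper quartile factors, no filter, at least 10 counts in every rat, DESeq2 1.42.0, the likelihood ratio test, limma 3.58.1 on log2(TPM + 1) and log2(TPM + 0.1), models of 9 and of 18 rats, each rat omitted in turn, a replicate block, and calls by the FDR alone or by an FDR of 0.01.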

Additional observations from a re-analysis of the deposited data

Results flagged for a closer look

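Results are listed here because the change from Year 0.5 to Year 2 differed between MWCNT-treated and control rats by the interaction term of the edgeR model (FDR below 0.05). Of the 139 genes that passed, only some named by the rules above or after their values were seen are listed. The kinds of gene below therefore reflect that choice and do not describe the full set that passed. Each value is the log2 fold change in MWCNT-treated rats minus that in control rats. Groups of 3 rats were too small for a test of single outlying rats.

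The change was higher in MWCNT-treated rats for macrophage and lysosomal genes, with *Fabp4* at 2.11, *Trem2* at 0.99, *Gpnmb* at 1.08, *Lgals3* at 0.83, *Lipa* at 0.76, and *Ctsa* at 0.59. The B cell and macrophage receptor *Cd72* was at 1.28. It was also higher for the plasma protein genes *Tf* (1.32), *Hp* (1.03), and *Serping1* (1.26), and for the mast cell and basophil genes *Mcpt8l3* (2.91), *Slc18a2* (1.31), *Slc45a3* (1.72), and *Hdc* (0.83). The gelatinase gene *Mmp9* was at 1.90, the matrix gene *Thbs2* at 1.45, *Lhfpl2* at 1.07, and *Thy1*, a cell surface protein, at 2.30. *Ly6i* was at 1.47 because it fell in control rats, with no call in the MWCNT-treated rats.

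The change was lower in MWCNT-treated rats for *Ccl11* (-2.33) and its receptor *Ccr3* (-2.32), for *Slc7a10* (-2.07), *Ackr4* (-1.52), *Unc5d* (-3.02), *Lyve1* (-1.20), and *Npw* (-1.22), and for the glutathione transferase *Gsta4* (-1.0). Of the genes named here, *Fabp4*, *Lhfpl2*, *Ly6i*, *Npw*, *Tf*, *Trem2*, *Hp*, *Slc7a10*, and *Ccr3* kept their call when each of the 12 rats was left out in turn.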

How the results depend on the processing

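The 316 DEGs (200 upregulated, 116 downregulated) numbered 174 (101 and 73) with limma on log2(TPM + 1), 2141 (1095 and 1046) by the FDR alone, 156 (107 and 49) at an FDR below 0.01, and 265 (140 and 125) with limma on log2(TPM + 0.1). They ranged from 199 to 348 (136 to 198 and 63 to 150) when each rat was left out, lowest without Year 0.5 rat 3. The 41 control DEGs numbered 81 with DESeq2, 94 in the model of 18 rats, 127 with the likelihood ratio test, 9 and 8 with limma on log2(TPM + 1) and log2(TPM + 0.1), 274 by the FDR alone, 8 at an FDR below 0.01, and 5 to 120 without single rats (5 without control Year 0.5 rat 1, 120 without control Year 2 rat 3). The 139 genes of the difference between treatments numbered 529 with DESeq2, 44 with an absolute difference above 1, and 23 to 239 without single rats (23 without control Year 2 rat 2, 239 without MWCNT Year 0.5 rat 2). With the replicate number as a block, there were 281 DEGs in MWCNT-treated rats, 81 in control rats, and 83 genes of the difference. The numbers mark different animals, and the deviations of same-numbered MWCNT-treated rats correlated at -0.0178, -0.147, and 0.171 across genes, so the block is no pairing.

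The other alternatives left these counts within 1.5 times. Of 2837 alternative values of named genes, 2496 kept direction and call, 290 were no longer called, 22 were called only in the alternative, and 29 turned sign without a call in either setting. No called value turned sign. Of 83 named DEGs, 54 kept their call without each rat, among them *Tpsb2*, *Tpsab1*, *Mcpt1l1*, *Cma1*, *Cpa3*, *Ms4a2*, *Fcer1a*, *Lpo*, *Ccl11*, and *Slc7a10*. Leaving out a rat leaves 2 in its group, whose spread is estimated with the other group. With 3 rats a group, small changes and genes under about 10 counts were not resolved, and all steps before counting were fixed in the deposited values.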
